A study of Mus musculus with 12 samples.

Results

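The SR proteins are splicing factors that bind exons and carry a tail rich in arginine and serine. Their genes were followed in mouse cortex through 10 members, *Srsf1*, *Srsf2*, *Srsf3*, *Srsf4*, *Srsf5*, *Srsf6*, *Srsf7*, *Srsf9*, *Srsf10* and *Srsf11*, which were taken by gene symbol from the 36047 genes of the deposited transcript table. The members hold 85 of its 118489 transcripts, and 29 of the 85 are annotated as protein coding, 26 as retained intron, 15 as targets of nonsense-mediated decay and 15 as processed transcripts without a reading frame. RNA from whole dissected cortex was sequenced for 4 groups of 3 animals, with both WT and *Gde2*KO animals at an age of 4 and of 19 months. *Gde2*KO mice were *Gde2*-/-, a germline loss in every tissue, males and females were used in the study, and the labels give no other allele and no treatment for any group. GDE2, encoded by *Gdpd5*, is a neuronal surface enzyme that cleaves the GPI anchor of membrane proteins. The question for the older animals was whether splicing differed between the genotypes, and for the younger ones which pathways depended on GDE2. Cortex is a mixture of cell types, so fewer cells of a type and less RNA per cell cannot be told apart.

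SR proteins recruit the spliceosome to nearby splice sites, and several of them also accompany mRNA to the cytoplasm. Their own genes are known for autoregulation, in which a surplus of the protein favors an isoform that cannot make it, either because a poison exon brings a premature stop codon or because an intron is kept. Transcripts with a premature stop are degraded by nonsense-mediated decay in the cytoplasm, and many transcripts that keep an intron stay in the nucleus, so both kinds are called nonproductive here. The poison exons of this family are among the most conserved stretches of mammalian genomes.

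The 4-month libraries held 46434270 to 59728494 estimated reads. At 19 months, 4 libraries held 36915259 to 44604721, while WT library A held 6734475 and *Gde2*KO library A held 3707928, so that 1 read weighed 4.66 and 8.29 normalized counts there. Even so, no member had fewer than 119 reads in any library, the value for *Srsf9* in *Gde2*KO library A. Single transcripts had fewer, with a lowest value over the libraries of 8.02 estimated reads for Srsf1-204 and 0 for Srsf2-204. *Gdpd5*, the targeted gene, stood at 684, 702 and 1199 normalized counts in 4-month WT libraries 1, 2 and 3, at 417, 585 and 403 in 4-month *Gde2*KO, at 1065, 1129 and 952 in 19-month WT and at 441, 456 and 560.1 in 19-month *Gde2*KO. Markers of neighboring brain regions varied between libraries. Summed normalized counts of 7 hippocampal marker genes were 9423 to 37203 in 4-month WT, 9331 to 11274 in 4-month *Gde2*KO, 6815 to 7278 in 19-month WT and 8546 to 9742 in 19-month *Gde2*KO, and those of 7 striatal marker genes were 4464 to 49467 in 4-month WT, 26463 to 66094 in 4-month *Gde2*KO, 7963 to 11508 in 19-month WT and 10059.6 to 19975 in 19-month *Gde2*KO. None of these markers was at 0 in all libraries. Summed counts of 7 neuronal markers were 176673 to 191946 in 4-month WT, 184051 to 257256 in 4-month *Gde2*KO, 208544 to 216543 in 19-month WT and 194391 to 205460.0 in 19-month *Gde2*KO. The share of TPM on retained-intron transcripts over all genes was 5.16, 5.43 and 5.12% in 4-month WT, 4.02, 5.44 and 3.19% in 4-month *Gde2*KO and 6.26% to 7.07% in the 6 libraries at 19 months. *Gde2*KO libraries 1 and 3 at 4 months thus held the fewest retained introns of the 12. What part tissue makeup, depth and this difference play in the results that follow was not tested.

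Poison exons were found in the annotation as internal exons of a decay transcript that overlap no exon of a protein-coding transcript of the gene. Of the 10 genes, 5 had such an exon: *Srsf3*, *Srsf4*, *Srsf7*, *Srsf9* and *Srsf11*. In 4 of them a transcript with a poison exon is set out below, from GENCODE vM21 transcripts on GRCm38, as the part of the exon that is read in frame, with the premature stop codon in capitals. These stretches are shown because they hold the letters that end the reading frame in the isoforms whose shares are given further on.
Srsf3-201 poison exon, chr17:29039454-29039909, plus strand: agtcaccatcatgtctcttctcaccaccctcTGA
Srsf7-203 poison exon, chr17:80204622-80205081, minus strand: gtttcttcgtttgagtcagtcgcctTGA
Srsf9-205 poison exon, chr5:115328347-115328704, plus strand: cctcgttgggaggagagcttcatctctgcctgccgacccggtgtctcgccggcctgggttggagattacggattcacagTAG
Srsf11-210 poison exon, chr3:158024123-158024231, minus strand: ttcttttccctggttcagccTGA
The frame ran for 31 bases into the *Srsf3* exon of 456 bases, for 25 of 460 in *Srsf7*, for 79 of 358 in *Srsf9* and for 20 of 109 in *Srsf11*. From the stop to the last exon junction of the same transcript there were 548, 699, 700 and 456 bases in the same order. For *Srsf11* the in-frame stretch, its stop and this distance were read in Srsf11-206, which shares the exon with Srsf11-210. They were not read in Srsf11-210 itself. *Srsf4* had 4 alternative exons of this kind in Srsf4-203 and Srsf4-204, of which that at chr4:131884276-131884482 on the plus strand held the stop. In *Srsf6* the inserted exon of the decay transcript Srsf6-201 also overlaps an incomplete coding model and therefore fell outside the rule, and the decay transcripts of *Srsf1* and *Srsf2* contain no exon that meets it. *Srsf10* had no decay or retained-intron transcript, and *Srsf9* had no retained-intron transcript. The library kit did not mark strand, so that reads from genes on the other strand, which overlap *Srsf1*, *Srsf2* and *Srsf4*, cannot be told apart from theirs.

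**Figure D1:**
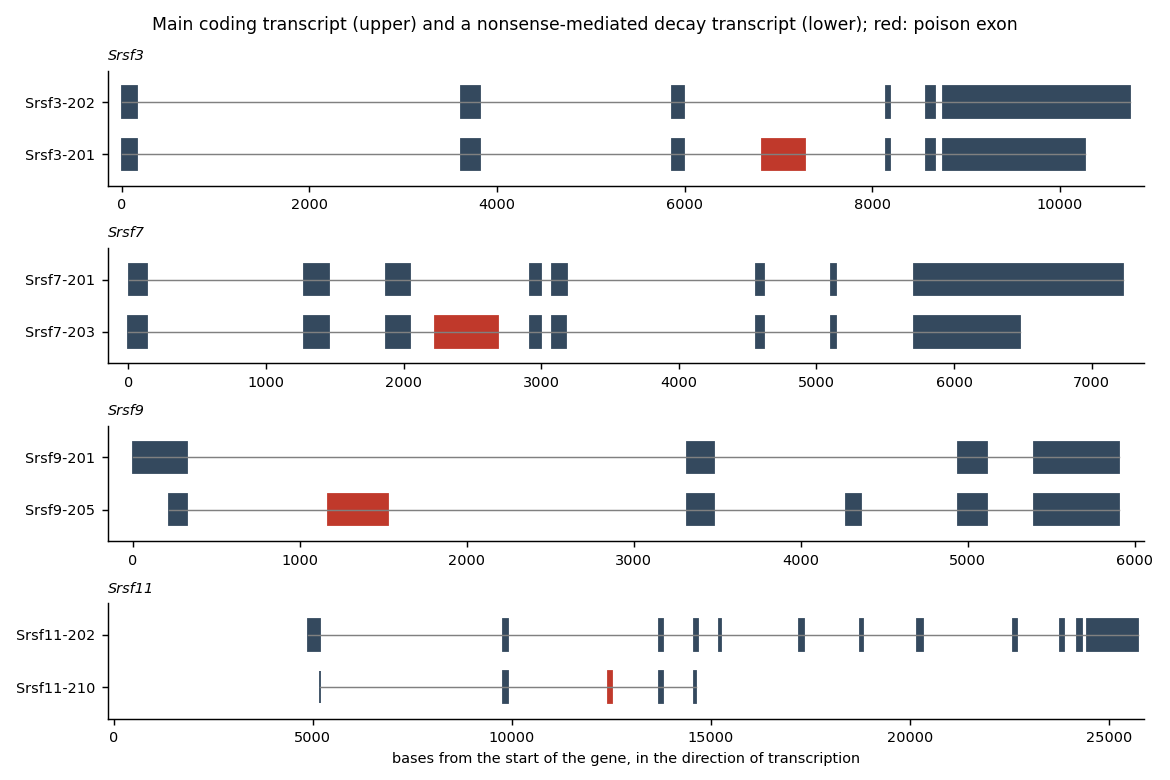
Exons (boxes) and introns (lines) of the main coding transcript and of a decay transcript of Srsf3, Srsf7, Srsf9 and Srsf11, by distance in bases from the start of the gene. The red box, the poison exon, is present in the lower transcript of each pair and absent from the upper one.

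All 10 genes were well expressed. TPM, which corrects for transcript length and so allows genes to be ranked, placed *Srsf5* first at 403 ± 39.03 (SD, n = 12 libraries), above every other member in each of the 12 libraries. *Srsf11*, which takes part in the inclusion of neuronal microexons, followed at 159 ± 27.2 TPM, then *Srsf2*, a marker of nuclear speckles, at 125 ± 8.05, and *Srsf3*, the smallest SR protein and an export adaptor, at 112 ± 19.7. *Srsf7*, also an export adaptor, stood at 102 ± 10.3 and *Srsf1*, the founding member, at 88.3 ± 13.04. *Srsf9*, *Srsf4*, *Srsf6* and *Srsf10* closed the order at 69.5, 68.3, 64.5 and 61.6 TPM. From *Srsf11* down, the range of each gene over the 12 libraries overlapped that of the next.

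At 4 months none of the 10 genes passed the test between *Gde2*KO and WT cortex. *Srsf3* had the largest difference, with 5151, 4807 and 4402 normalized counts in WT libraries 1, 2 and 3 and 5227, 4730.2 and 7422 in the *Gde2*KO ones. One *Gde2*KO library, number 3, was high and the other two lay within or just above the WT range. The log2 difference was 0.25 ± 0.18 (SE) with an adjusted p of 0.541 (limma on log2 gene sums, Benjamini-Hochberg over 19035 genes). *Srsf7* was also highest in that library, at 3005, 2827 and 2701 in WT and 2865, 2906 and 3928 in *Gde2*KO, with a log2 difference of 0.17 ± 0.15 (SE). *Srsf9* was the only member whose *Gde2*KO mean was lower, at 1272, 1189 and 1536 against 1628, 1487 and 1202 in WT (log2 difference -0.11 ± 0.16 (SE)). The other genes gave log2 differences of 0.12 (*Srsf2*), 0.088 (*Srsf5*), 0.052 (*Srsf6*), 0.041 (*Srsf10*), 0.041 (*Srsf11*), 0.041 (*Srsf4*) and 0.0040 (*Srsf1*). In normalized counts WT and *Gde2*KO libraries overlapped for all 10 genes, where 15.4% of all genes did not overlap. In TPM *Srsf1* and *Srsf10* were lower in *Gde2*KO without overlap. *Srsf1* was at 82.9, 91.1 and 78.1 TPM in WT and 72.4, 72.8 and 67.9 in *Gde2*KO. *Srsf10* was at 64.4, 67.02 and 63.96 TPM in WT and 54.1, 56.5 and 63.4 in *Gde2*KO. None was called at an adjusted p under 0.1 with a log2 difference beyond 0.72, the rule for genotypes that that 0.126% of all genes passed, 0 of the 10 had an unadjusted p under 0.05, and their adjusted p by limma lay between 0.541 and 0.988. Their median log2 difference was 0.047, beside 0.11 over all genes. TMM scaling moved the latter to 0.0066 and the former to -0.055, so that the sign of the members' median changed with the scaling. The 95% intervals still spanned up to 0.67 upward for *Srsf3* and -0.49 downward for *Srsf9*.

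At 19 months again none passed. *Srsf5*, the most abundant member, was the only gene whose libraries did not overlap: it stood at 11437, 11679.9 and 11656 normalized counts in WT libraries A, B and C and at 9356, 10979 and 10665 in *Gde2*KO, where the lowest value belonged to the library of lowest depth. The log2 difference was -0.17 ± 0.063 (SE) with an unadjusted p of 0.0259 and an adjusted p of 0.697 (limma, Benjamini-Hochberg over 18583 genes), so it did not pass. Of all genes tested, 14.2% had libraries that did not overlap, and 0.0969% were called. In TPM the *Srsf5* libraries overlapped, at 427, 456 and 462 in WT and 373, 446 and 422 in *Gde2*KO. The protein-coding transcripts of *Srsf5* alone were at 172, 169 and 200.2 TPM in WT and 154, 155 and 152 TPM in *Gde2*KO. Their normalized counts gave a log2 difference of -0.23 ± 0.073 (SE) and an adjusted p of 0.631. At 4 months the order of these transcripts was the opposite, with 168, 166 and 150 TPM in WT and 179, 188 and 212 TPM in *Gde2*KO. No other member separated the genotypes by coding TPM at either age. How often coding TPM separates them over all genes was not tested. The reversal was seen in the values and not sought beforehand. The normalized counts of the *Srsf5* coding transcripts at 4 months gave a log2 difference of 0.30 ± 0.14 (SE) and an adjusted p of 0.431 (limma). For the other 9 genes the log2 difference lay between -0.063 (*Srsf11*) and 0.096 (*Srsf10*), with *Srsf1*, *Srsf2*, *Srsf3*, *Srsf4*, *Srsf6* and *Srsf9* below 0 and *Srsf7* above it, and the widest interval, that of *Srsf9*, ran from -0.28 to 0.19. The plot of genotype differences shows the intervals of all 10 at both ages. The limma test of the genotype by age interaction, called at an adjusted p under 0.1, called none of the members, and 0 had an unadjusted p under 0.05 (called: 0.048% of all genes). The lowest adjusted p was that of *Srsf5*, 0.389 by limma for a log2 difference of -0.26 ± 0.12 (SE).

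**Figure D2:**
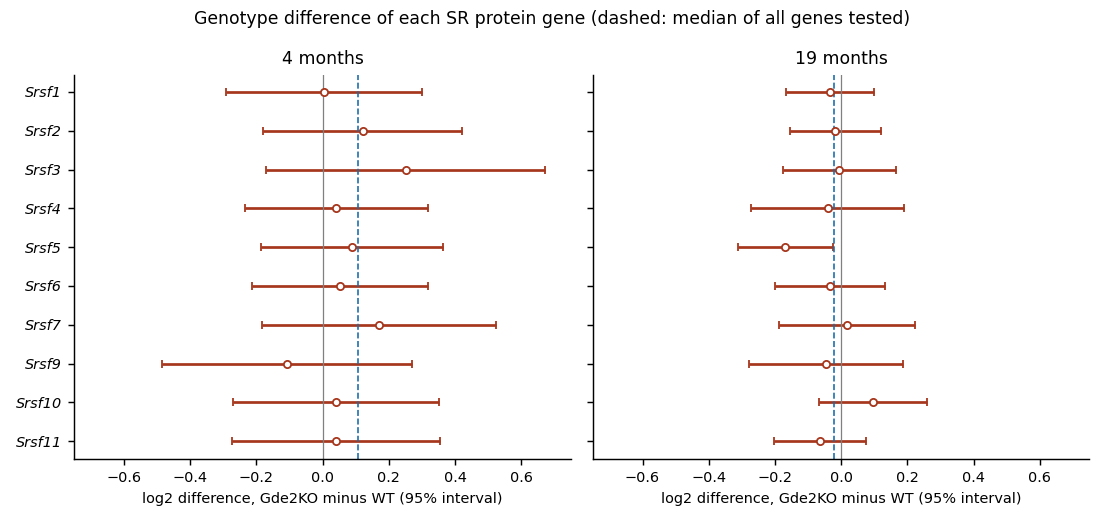
Log2 difference in gene-level normalized counts, *Gde2*KO minus WT, at 4 and at 19 months for the 10 genes (points, limma estimates; lines, 95% intervals, n = 3 per group). Every interval but that of Srsf5 at 19 months (-0.31 to -0.026) crosses 0, and the dashed line marks the median of all genes.

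**Figure D3:**
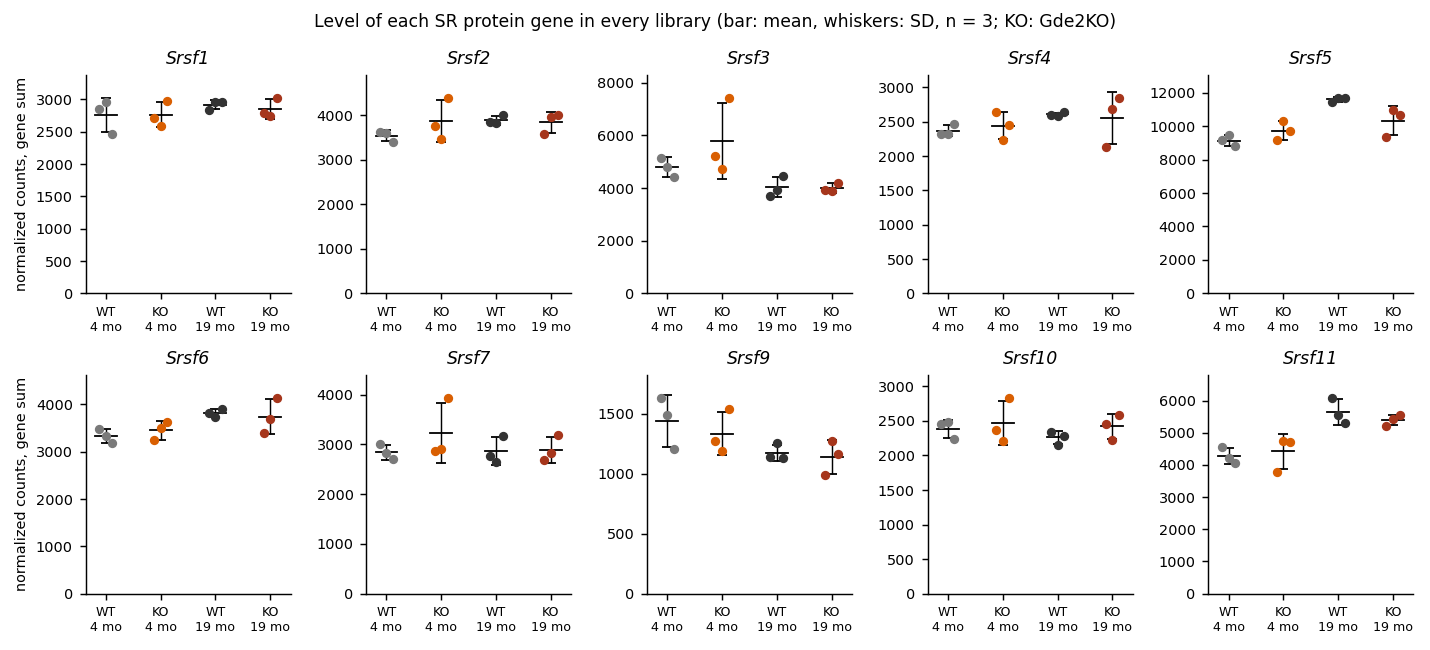
Gene sums of normalized counts in every library (points) with the group mean and SD (n = 3), on axes that start at 0. WT and *Gde2*KO points overlap in each gene at 4 months, and Srsf3 lies at 4402 to 7422 at 4 months and at 3698 to 4449.9 at 19 months.

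The members differed widely in how much of their RNA was nonproductive. Retained-intron transcripts held the largest share in *Srsf11*, with 54.3%, 57.4% and 55.2% of the gene's TPM in 4-month WT, spread over 11 transcripts, and in *Srsf1* (39.7%, 44.6% and 47.8%) and *Srsf6* (43.9%, 43.2% and 43.8%), where Srsf1-206 and Srsf6-204 made up most or all of it. Lower shares were seen in *Srsf7* (28.5%, 29.8% and 28.1%), *Srsf2* (27.03%, 24.04% and 27.3%) and *Srsf5* (24.6%, 26.4% and 25.5%), and the lowest in *Srsf3* (10.6%, 12.96% and 12.4%) and *Srsf4* (5.65%, 6.08% and 5.15%). Decay transcripts were prominent in a single gene, *Srsf9*, where Srsf9-205 with the poison exon shown above held 34.9%, 36.4% and 30.8% in 4-month WT. They held smaller shares in *Srsf3* (Srsf3-201, 10.4%, 11.9% and 10.9%) and *Srsf4* (10.5%, 9.29% and 10.3%), and less in *Srsf1*, *Srsf6*, *Srsf7* and *Srsf11*. In *Srsf5* the only decay transcript stayed at or under 0.0545% in every library. These shares rest on estimated reads that Kallisto divides among transcripts sharing most of their sequence.

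Usage of the transcripts within each gene was compared between the genotypes with limma's diffSplice, and a gene was called at an adjusted p under 0.1 with a transcript that shifted by more than 10 percentage points. None of the 10 was called at 4 months, when 0.997% of all genes were, nor at 19 months, when 0.171% were. By diffSplice, 3 members had an unadjusted p under 0.05 at 4 months, as had 1538 of 12235 genes. At 19 months 1 (*Srsf1*) had such a p, as had 625 of 12253 genes. At 4 months the lowest adjusted p was that of *Srsf10*, 0.167, followed by *Srsf9* (0.205) and *Srsf6* (0.395). The other 7, *Srsf1*, *Srsf2*, *Srsf3*, *Srsf4*, *Srsf5*, *Srsf7* and *Srsf11*, had adjusted p values of 0.469 to 0.968 by diffSplice. *Srsf10*, which turns from activator to general repressor of splicing when dephosphorylated, had its protein-coding transcripts at 63.1%, 61.6% and 59.1% of TPM in WT and 72.3%, 66.7% and 69.9% in *Gde2*KO at 4 months. These ranges did not overlap, but at 19 months they did, with 58.9%, 64.98% and 63.4% in WT and 63.1%, 58.7% and 66.5% in *Gde2*KO. The coding shares of *Srsf5* and *Srsf6* were also higher in *Gde2*KO without overlap at 4 months, so that 3 of 10 members separated, beside 13.9% of all genes. In *Srsf9*, the share of Srsf9-205 at 4 months was 25.5%, 28.4% and 33.2% in *Gde2*KO against the WT values above, and its ranges overlapped. The coding transcript Srsf3-202 was lower in *Gde2*KO at 19 months, at 45.6%, 49.2% and 52.1% against 58.00%, 59.2% and 53.4% in WT, while the short processed transcript Srsf3-209 was at 28.7%, 20.4% and 19.7% against 12.2%, 11.6% and 20.7%. Srsf3-209 was singled out after its values were seen. The coding values did not overlap, and the gene's adjusted p was 0.986 by diffSplice. At 19 months the coding share of *Srsf6* was also lower and that of *Srsf2* higher in *Gde2*KO without overlap, again 3 of 10 members, beside 11.6% of all genes.

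The share of decay transcripts, which includes the poison-exon isoforms, was not called for any member by genotype. At 4 months it was tested by limma on the log2 odds, the log2 of the share over the rest of the gene, in 8 members, of which 5 had a higher and 3 had a lower fitted value in *Gde2*KO, and 0 passed at an adjusted or an unadjusted threshold (called: 0.128% of all genes). *Srsf6* had 6.36%, 8.17% and 5.82% of its TPM on Srsf6-201 in 4-month WT and 11.3%, 8.56% and 8.73% in *Gde2*KO, which did not overlap (log2 odds 0.54 ± 0.24 (SE, adjusted p = 0.673)). At 19 months the values were 6.27%, 6.78% and 4.95% and 3.71%, 7.70% and 5.92%, which did. *Srsf1* separated at both ages, and in opposite directions. Its decay transcripts, nearly all Srsf1-204, held 8.26%, 8.05% and 7.58% in 4-month WT and 8.35%, 10.04% and 11.7% in 4-month *Gde2*KO, then 9.57%, 9.13% and 10.03% in 19-month WT and 5.86%, 6.72% and 6.63% in 19-month *Gde2*KO. The log2 odds differed between genotypes by 0.35 ± 0.21 (SE, adjusted p = 0.710) at 4 months and by -0.63 ± 0.20 (SE, adjusted p = 0.863) at 19 months, and the interaction was -0.98 ± 0.27 (SE, unadjusted p = 0.00487, adjusted p = 0.829 by limma). Of the decay shares of all genes, 13.9% did not overlap between the genotypes at 4 months and 10.5% at 19 months, so separations of this kind were common. At 19 months 0 of 7 members tested were called by limma, with 0.0325% of all genes called. Only 1, *Srsf1*, had an unadjusted p under 0.05 by limma, as had 65 of 3080 genes. The interaction called 0 of 8 members and 0.0317% of all genes. An exact two-sided permutation test of 3 against 3 libraries cannot go below p = 0.1, the value reached by *Srsf1* at both ages and by *Srsf6* at 4 months.

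The poison exons themselves were carried by 10.4%, 11.9% and 10.9% of *Srsf3* TPM in 4-month WT, 9.52%, 9.64% and 13.1% in 4-month *Gde2*KO, 11.6%, 11.2% and 10.1% in 19-month WT and 7.84%, 9.90% and 11.7% in 19-month *Gde2*KO. All 4 groups overlapped. The *Srsf7* exon was rarer, in 2.11 to 3.88% of TPM at 4 months and 2.30 to 6.54% at 19 months, where the highest value came from *Gde2*KO library A. The *Srsf11* exon with the stop was in 2.87 to 8.61% at 4 months and 4.17 to 9.20% at 19 months. Counting Srsf9-202, a processed transcript that contains it too, the *Srsf9* exon was in 30.9 to 45.7% and 23.2 to 44.2%, with its lowest value in *Gde2*KO library A, the library in which *Srsf9* had the fewest reads. The *Srsf4* exon with the stop was in 3.92 to 7.92% at 4 months and 4.50 to 9.21% at 19 months. In each of the 5 genes the ranges of both ages overlapped.

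Retained-intron transcripts were lower in the mean of 4-month *Gde2*KO than of WT for all 8 members that have them, and 0 of the 8 were called or had an unadjusted p under 0.05 by limma (called: 0.0259% of all genes). The median log2 odds was -0.29 over the 8 and -0.32 over all genes. In 7 of the 8 genes the lowest value of all 12 libraries was that of 4-month *Gde2*KO library 3, and in *Srsf4* that of library 1, the libraries that were also low over all genes. *Srsf6* separated most clearly: Srsf6-204 held 43.9%, 43.2% and 43.8% in WT and 35.1%, 39.00% and 28.5% in *Gde2*KO (log2 odds -0.58 ± 0.25 (SE, adjusted p = 0.617)). At 19 months the order was the opposite, with 42.98%, 43.2% and 41.9% in WT and 47.8%, 47.7% and 48.2% in *Gde2*KO (log2 odds 0.30 ± 0.15 (SE, adjusted p = 0.835)), and again 0 of the 8 members were called or had an unadjusted p under 0.05 by limma (called: 0.0131% of all genes). The libraries did not overlap at either age, and the interaction was 0.89 ± 0.26 (SE, unadjusted p = 0.00724, adjusted p = 0.795 by limma), when 0 of 7729 genes were called and 428 had an unadjusted p under 0.05. *Srsf4* showed the reverse separation at 19 months, at 8.72%, 8.41% and 8.95% in WT and 5.53%, 7.83% and 7.75% in *Gde2*KO. Of the retained-intron shares of all genes, 13.9% did not overlap between the genotypes at 4 months and 11.8% at 19 months. With both classes summed, 0 of 9 members were called or had an unadjusted p under 0.05 by limma at 4 months or at 19 months, where 0.0116% and 0.0118% of all genes were.

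Between the ages 5 of the 10 SR protein genes were called. The 4- and 19-month animals were also separate sets of libraries, and age and library set cannot be told apart. Some markers of other cells moved with it. Of 5 oligodendrocyte markers 4 were called lower, with summed counts of 92611 to 130553 at 4 months and 63989 to 100339.8 at 19 months, and of 5 astrocyte markers 3 were called lower and 1 higher, with 28946 to 52609 at 4 months and 22277 to 32693 at 19 months. Of the hippocampal and striatal markers 6 and 3 of 7 were called lower, and none of either list higher. Other lists were mixed or had few calls. Of 7 neuronal markers 1 was called higher and 1 lower, and of 3 endothelial ones 1 higher and 1 lower. Of 5 microglial markers 1 was called lower, and of 3 blood markers 2 were called higher. Over all genes 32.0% were called lower and 15.3% higher. The part of these markers in the results was not tested. *Srsf3* and *Srsf9* were lower at 19 months, and *Srsf5*, *Srsf6* and *Srsf11* were higher. *Srsf3* went from 5151, 4807 and 4402 normalized counts in 4-month WT and 5227, 4730.2 and 7422 in 4-month *Gde2*KO to 3698, 3943 and 4449.9 and 3915, 3893 and 4210.4 at 19 months. The ages overlapped at a single pair of values, with WT library C of 19 months above WT library 3 of 4 months, and the log2 difference was -0.38 ± 0.10 (SE, adjusted p = 0.0142). *Srsf11* did not overlap, with 4549, 4221 and 4072 and 3790.4, 4755 and 4726 at 4 months and 6071, 5560.4 and 5298 and 5217, 5422 and 5547 at 19 months, a log2 difference of 0.35 ± 0.072 (SE, adjusted p = 0.00389). In normalized counts its ages were the only ones among the 10 genes that stood apart, as they did in 19.2% of all genes. The gene that stood apart changed with the measure. In TPM *Srsf11* overlapped, at 112 to 164 at 4 months and 156 to 203 at 19 months. *Srsf1* was then the only one apart, at 67.9 to 91.1 and 91.3 to 104.8 TPM. *Srsf5* rose from 9157, 9456 and 8787 and 9165, 10297 and 9689.8 to 11437, 11679.9 and 11656 and 9356, 10979 and 10665 (log2 difference 0.22 ± 0.061 (SE, adjusted p = 0.0166)), so that a single library, the shallow *Gde2*KO library A, fell within the range of 4 months. *Srsf6* rose with a log2 difference of 0.15 ± 0.063 (SE, adjusted p = 0.0731) and *Srsf9* fell with one of -0.25 ± 0.099 (SE, adjusted p = 0.0608). These adjusted p values are by limma over 18731 genes, of which 47.3% were called, so that 5 called of 10 was close to the share over all genes. The other 5 genes had log2 differences of -0.071 (*Srsf7*) to 0.098 (*Srsf4*).

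The scaling weighs on these directions. The median log2 difference between the ages was -0.15 over all genes and 0.066 over the 10 members, with 15.3% of genes called higher and 32.0% called lower at 19 months. Under TMM scaling the median of all genes was -0.030, 23.5% were called higher and 23.3% lower, and 7 members were called: *Srsf1*, *Srsf2*, *Srsf4*, *Srsf5*, *Srsf6* and *Srsf11* as higher and *Srsf3* as lower. *Srsf9* was then at -0.14 with an adjusted p of 0.224 (limma), and *Srsf7* and *Srsf10* changed sign. Measured from the median of all genes, *Srsf3* differed by -0.23 and *Srsf9* by -0.11 on the log2 scale, and *Srsf5* and *Srsf11* by 0.36 and 0.49. Without the 2 libraries of low depth, *Srsf3*, *Srsf5*, *Srsf6* and *Srsf11* were called. In WT libraries alone the same 4 genes were called, and in *Gde2*KO libraries alone 1 was, *Srsf3*.

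When the protein-coding transcripts alone were summed, the difference in *Srsf3* widened. Its coding TPM was 78.7, 73.5 and 66.8 in 4-month WT, 85.5, 73.4 and 119 in 4-month *Gde2*KO, 49.8, 52.8 and 60.8 in 19-month WT and 50.5, 49.1 and 53.4 in 19-month *Gde2*KO, and every library of 19 months lay below every library of 4 months. No other member separated on this measure, and 17.6% of all genes did. The log2 difference in normalized counts was -0.64 ± 0.12 (SE, adjusted p = 0.00244). *Srsf7* and *Srsf9* were called lower too, with log2 differences of -0.30 ± 0.12 (SE, adjusted p = 0.0629) and -0.20 ± 0.089 (SE, adjusted p = 0.0886). *Srsf5* and *Srsf11*, whose total was higher at 19 months, were at -0.10 ± 0.074 (SE, adjusted p = 0.300) and 0.070 ± 0.090 (SE, adjusted p = 0.563) for their coding transcripts. In *Srsf11* the coding TPM was 49.1 to 62.6 at 4 months and 49.3 to 64.4 at 19 months. Over all genes 32.1% were called lower and 14.1% higher by this measure, 46.3% in all (limma, Benjamini-Hochberg over 16774 genes).

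The share of retained-intron transcripts was higher at 19 than at 4 months in the fit of all 8 members that have them, and 6 were called: *Srsf1*, *Srsf3*, *Srsf4*, *Srsf6*, *Srsf7* and *Srsf11*. Of all genes, 12.8% were called higher. *Srsf3* had the largest estimate. Its retained-intron transcripts held 10.6%, 12.96% and 12.4% in 4-month WT and 9.10%, 11.3% and 6.32% in 4-month *Gde2*KO, and 18.2%, 18.1% and 14.6% and 17.8%, 18.1% and 16.4% at 19 months, with no overlap between the ages. The log2 odds differed by 0.87 ± 0.17 (SE, adjusted p = 0.0172), and *Srsf3* was the only one of the 8 genes without overlap, beside 6.91% of all genes. *Srsf1* rose from 39.7%, 44.6% and 47.8% in WT and 40.4%, 38.8% and 29.98% in *Gde2*KO to 54.1%, 53.03% and 46.97% and 55.6%, 51.7% and 54.9% (log2 odds 0.74 ± 0.16 (SE, adjusted p = 0.0229)), and its ages overlapped at a single pair of WT libraries. *Srsf7* rose from 28.5%, 29.8% and 28.1% and 23.7%, 33.6% and 22.1% to 43.8%, 36.2% and 32.9% and 46.5%, 35.9% and 39.04% (log2 odds 0.75 ± 0.19 (SE, adjusted p = 0.0404)). The 2 highest values in *Srsf7* came from the 2 libraries of low depth. *Srsf4*, *Srsf11* and *Srsf6* rose, by log2 odds of 0.66 ± 0.18 (SE, adjusted p = 0.0494), 0.46 ± 0.15 (SE, adjusted p = 0.0881) and 0.39 ± 0.13 (SE, adjusted p = 0.0982). *Srsf2* and *Srsf5* did not pass, at 0.27 ± 0.11 (SE, adjusted p = 0.170) and 0.34 ± 0.13 (SE, adjusted p = 0.145). These tests are by limma with Benjamini-Hochberg adjustment over 7729 genes, and the median log2 odds was 0.56 over the 8 members and 0.15 over all genes.

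The calls depended on which libraries were used. Without 4-month *Gde2*KO libraries 1 and 3, which were low in retained introns over all genes, the log2 odds stayed above 0 in all 8 genes with a median of 0.34, beside -0.036 over all genes. The 4-month *Gde2*KO mean then rested on 1 library, number 2, with 5.44% of TPM on retained-intron transcripts over all genes. Only *Srsf3* was then called, at 0.65 with an adjusted p of 0.0813 (limma, 2.84% of all genes called). *Srsf1* was at 0.66 with an adjusted p of 0.104 by the same test. In the remaining 4-month libraries *Srsf3* retained introns at 10.6% to 12.96% of its TPM, still below all 6 libraries of 19 months. In WT libraries alone, 7 of the 8 genes had a log2 odds above 0 and *Srsf4* was called, at 0.68 with an adjusted p of 0.0803 (limma, 5.64% of all genes called). *Srsf6* was the exception at -0.057, so that its rise between the ages rested on the *Gde2*KO libraries. In *Gde2*KO libraries alone all 8 were above 0 and 0 were called by limma, with 6 of 7628 genes called in all. There 4 of the 8 had an unadjusted p under 0.05 by limma, as had 1033 of the 7628 genes. Leaving out each library in turn gave 3 to 8 called members, and without the 2 libraries of low depth 5 were called.

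No member was called for its decay transcripts. Their share was tested in 8 members, of which 2 (*Srsf4* and *Srsf7*) had a log2 odds above 0 at 19 months. By limma 0 were called, beside 1.05% of all genes. An unadjusted p under 0.05 by limma was reached by 2 members (*Srsf2* and *Srsf6*) and by 372 of 3157 genes. *Srsf3*, with its poison exon, differed by -0.084 ± 0.16 (SE) with a 95% interval of -0.44 to 0.27, and *Srsf9* by -0.14 ± 0.24 (SE) with an interval of -0.67 to 0.40. *Srsf6* was at -0.51 ± 0.22 (SE, adjusted p = 0.416). *Srsf2*, with a share of 0.974 to 4.22% at 4 months and at most 0.970% at 19 months, was at -3.22 ± 1.22 (SE, adjusted p = 0.336), where the 2 libraries of low depth listed its main decay transcript, Srsf2-204, at 0. Without them it was at -1.41 with an adjusted p of 0.106 (limma). Its ages were the only ones of the 9 decay shares that did not overlap, beside 2.34% of all genes. The 2 classes were then set against each other directly, as the share of retained-intron transcripts within the nonproductive ones. All 8 genes had a value above 0, from 0.21 in *Srsf11* to 3.40 in *Srsf2*, and *Srsf3* was at 0.83 ± 0.26 (SE, adjusted p = 0.195). 4 genes (*Srsf1*, *Srsf2*, *Srsf3* and *Srsf6*) had an unadjusted p under 0.05 by limma, as had 320 of the 2521 genes tested. None of the 8 passed, where 1.43% of the 2521 were called and 1.03% called higher, so the classes were not shown to differ. The median of all genes on this measure was 0.29. With the 2 classes summed, *Srsf1*, *Srsf3* and *Srsf7* of 9 members were called higher, at 0.67 ± 0.13 (SE, adjusted p = 0.0220), 0.49 ± 0.11 (SE, adjusted p = 0.0340) and 0.76 ± 0.20 (SE, adjusted p = 0.0483), where 13.6% of all genes were called. The interaction of genotype and age called none of the 9 and 0.0% of all genes, of which 515 of 8601 had an unadjusted p under 0.05, among them *Srsf6*.

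**Figure D4:**
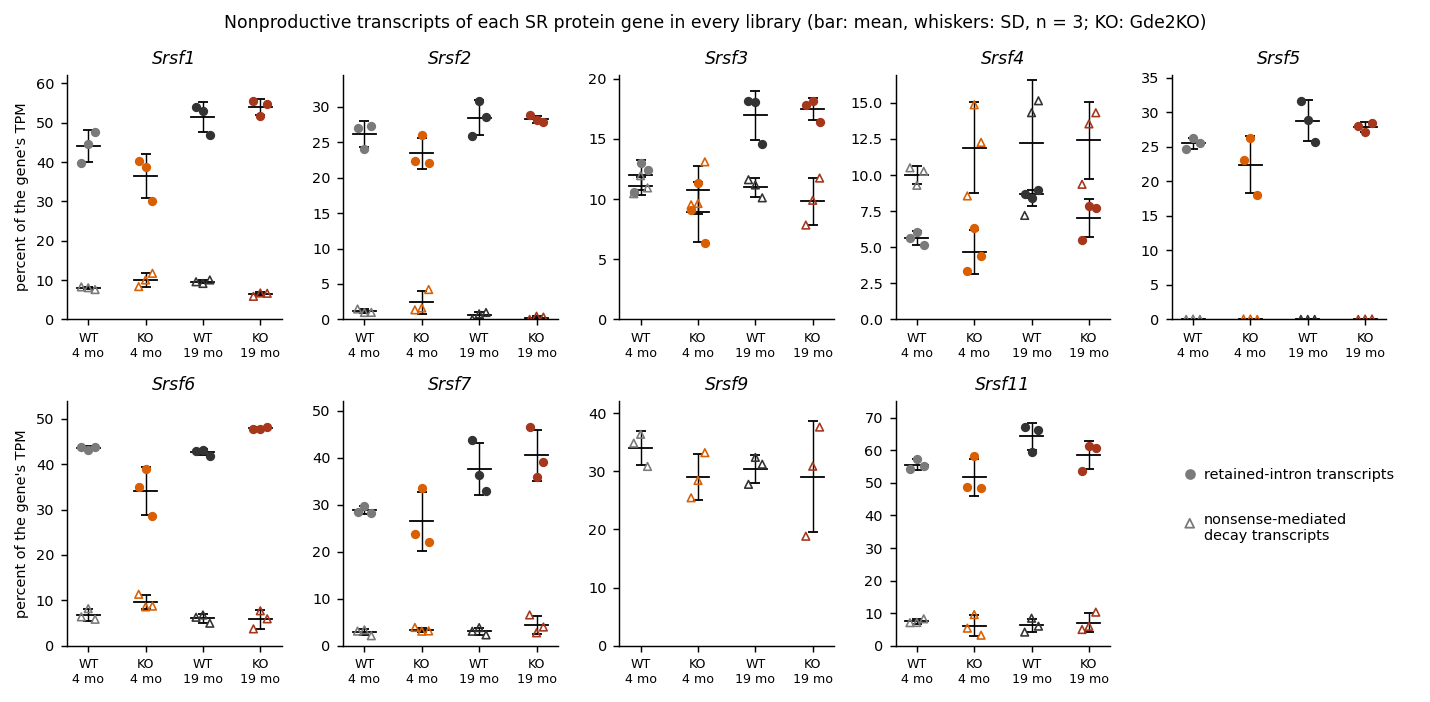
Share of each gene's TPM on retained-intron transcripts (filled circles) and on nonsense-mediated decay transcripts (open triangles) in every library, with group mean and SD (n = 3). The retained-intron share of Srsf3 lies at 6.32% to 12.96% at 4 months and 14.6% to 18.2% at 19 months, and that of Srsf6 separates the genotypes in opposite directions at the 2 ages.

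**Figure D5:**
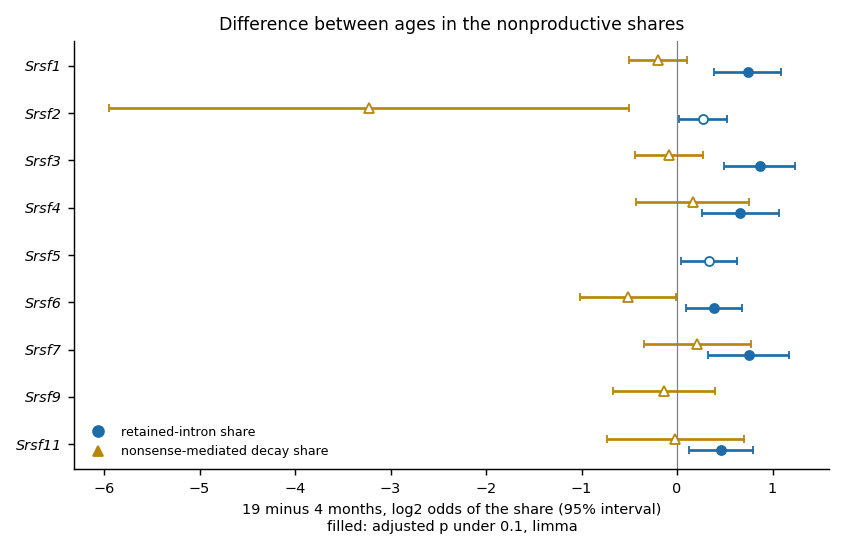
Difference between 19 and 4 months in the log2 odds of the retained-intron share (circles) and the decay share (triangles), with 95% intervals; filled symbols passed an adjusted p of 0.1 by limma over all genes. The retained-intron estimates all lie above 0, from 0.27 to 0.87, and no decay estimate is filled.

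The partners of the SR proteins were followed in 4 lists. By genotype 0 genes of any list were called at either age, of 14 SR-like partners, 11 kinases, phosphatases and importers that control SR protein phosphorylation and entry to the nucleus, 17 genes of nonsense-mediated decay and the exon junction complex, and 16 genes of U1, U2AF and the hnRNPs. In that order 0, 2, 1 and 0 genes had an unadjusted p under 0.05 by limma at 4 months and 0, 0, 0 and 1 at 19 months. Over all genes 2025 of 19035 had such a p at 4 months and 1285 of 18583 at 19 months. Between the ages, 8 SR-like partners were called higher and 2 lower, with a median log2 difference of 0.28. *Srrm4*, which directs neuronal microexons, was at 0.53 ± 0.067 (SE, adjusted p = 0.000275), *Srrm2*, a scaffold of nuclear speckles, at 0.68 ± 0.10 (SE, adjusted p = 0.000666) and *Acin1* at 0.52 ± 0.068 (SE, adjusted p = 0.000293). *Tra2a* and *Tra2b*, a pair of paralogous activators, were called in opposite directions, with *Tra2a* at 0.24 ± 0.068 (SE, adjusted p = 0.0166) and *Tra2b* at -0.21 ± 0.071 (SE, adjusted p = 0.0330). *Srsf12*, a low-abundance relative of *Srsf10*, was at -0.32 ± 0.089 (SE, adjusted p = 0.0162).

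Of the kinase list, 5 were called higher and 1 lower at 19 months. The CLK kinases phosphorylate SR proteins in the nucleus, and *Clk1* stood at 2792 to 3511 normalized counts at 4 months and 3707 to 4214 at 19 months (log2 difference 0.32 ± 0.066 (SE, adjusted p = 0.00375)). These ranges did not overlap, as in 19.2% of all genes. *Clk4* and *Clk3* were at 0.31 ± 0.086 (SE, adjusted p = 0.0152) and 0.39 ± 0.084 (SE, adjusted p = 0.00496), and *Srpk1*, the cytoplasmic kinase, at 0.20 ± 0.061 (SE, adjusted p = 0.0233). *Ppp1ca*, a catalytic subunit of protein phosphatase 1, was lower at -0.53 ± 0.10 (SE, adjusted p = 0.00257). In the decay list 6 genes were called higher, among them *Upf1*, the central helicase, at 0.22 ± 0.069 (SE, adjusted p = 0.0240) and *Casc3* at 0.27 ± 0.058 (SE, adjusted p = 0.00490), and 5 lower, among them *Magoh* at -0.85 ± 0.18 (SE, adjusted p = 0.00434) and *Pnrc2* at -0.58 ± 0.13 (SE, adjusted p = 0.00493). In the U1 and hnRNP list 3 were higher and 5 lower, with *Snrnp70* at 0.70 ± 0.086 (SE, adjusted p = 0.000212), *Hnrnpc* at -0.77 ± 0.096 (SE, adjusted p = 0.000232) and *Ptbp2* at -0.50 ± 0.079 (SE, adjusted p = 0.000920). All of these are log2 differences by limma, of which 47.3% were called over all genes. The medians of the kinase, decay and hnRNP lists were 0.20, -0.048 and -0.071, beside -0.15 over all genes. Under TMM scaling the decay and hnRNP medians changed sign, to 0.068 and 0.044, *Tra2b* was at -0.098 with an adjusted p of 0.210 (limma), and the other genes named here kept their direction and call. That scaling called 9 SR-like partners higher and 1 lower, 8 and 1 of the kinase list, 7 and 5 of the decay list and 6 and 3 of the hnRNP list.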

How the data were processed

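Whole cortex RNA was enriched for poly(A) and made into libraries with a kit that does not mark strand (NEBNext Ultra II). The authors deposited signal values per transcript, namely Kallisto estimated counts against the GRCm38 transcriptome divided by a Sleuth size factor (normalized counts), and TPM divided by the same kind of factor. The versions of both tools are not given in the sources used here. Estimated reads per library are total normalized counts divided by the commonest low value, taken as 1 read. Columns of 19 months carry no replicate number and were lettered A to C by column name, which pairs no libraries.

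Normalized counts were summed per gene and tested on log2(value + 0.5) with limma 3.58.1 (R 4.3.3, intensity trend) over all genes with 5 or more normalized counts in at least 47% of libraries. Benjamini-Hochberg adjusted p had to lie under 0.1, and genotype calls also needed the study's effect of 0.5 in natural log units. Genotypes were compared within each age, and ages over the mean of both genotypes. Shares of TPM were tested as log2 odds in genes with a mean of 20 normalized counts and a mean share above 1%, after adding 0.5 to both parts, and transcript usage with diffSplice. The labels do not say that replicates were separate litters or preparations, so p-values measure the spread between these libraries. Alternatives were other scalings, filters, pseudocounts and array weights, and libraries left out. Scripts were tested on simulated data. Gene models are GENCODE vM21. All 10 members were taken into each comparison whose filters they passed, and are described singly where their values stood apart. Partner genes are named from a short fixed choice and the lowest adjusted p of each list. The members and lists were chosen with earlier results of these data known.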

Additional observations from a re-analysis of the deposited data

Results flagged for a closer look

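2 shares of a single nonproductive class moved in opposite directions at the 2 ages, with every *Gde2*KO library on one side of every WT library at each age. The summed nonproductive share of *Srsf6* did so as well, but most of it is the same retained-intron transcript. The coding share of *Srsf6* is the remainder of that sum, so neither is a separate result. Over all genes, 13.9% of decay shares did not overlap between the genotypes at 4 months and 10.5% at 19 months. For retained-intron shares these were 13.9% and 11.8%. The nearest *Srsf1* values at 4 months were 8.26% in WT and 8.35% in *Gde2*KO. The share of *Srsf1* TPM on nonsense-mediated decay transcripts was higher in *Gde2*KO by 2.07 percentage points at 4 months and differed by -3.17 points at 19 months (*Gde2*KO minus WT, n = 3 per group). The limma interaction on the log2 odds was -0.98 with an adjusted p of 0.829, so the difference between the ages did not pass. The share of *Srsf6* TPM on its retained-intron transcript differed by -9.45 points at 4 months and by 5.20 points at 19 months, with an interaction of 0.89 and an adjusted p of 0.795 (limma). At 4 months the *Gde2*KO values of *Srsf6* came with a lower retained-intron share over all genes in libraries 1 and 3, whose part was not tested. Groups of 3 are too small for a test of single outlying libraries.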

How the results depend on the processing

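By genotype, 0 members were called at either age for gene level, transcript usage or nonproductive share under every alternative run, while the genes called over all ran from 5 to 2934 at 4 months and from 7 to 77 at 19 months at gene level, the highest with array weights. Some members passed the adjusted p but not the size rule, all at 4 months. At gene level these were 5 with array weights, as were 12983 of 19035 genes. For usage they were 2 by Simes adjustment, as were 788 of 12235 genes. Without *Gde2*KO library 2 they were 3, as were 1293 of 12244 genes, and without WT library 2 or 3 they were 1. Array weights called 2 members and 8744 genes for the interaction, against 9 genes without them. Between the ages, 5 members were called at gene level, 1 in *Gde2*KO libraries alone, 3 from protein-coding transcripts only, and 3 to 5 with each library left out in turn. The lowest count, 3, was reached without 4-month WT library 2 or without 19-month WT library A or C. For the nonproductive share 3 members were called, 6 by shares of normalized counts, 0 without 4-month *Gde2*KO libraries 1 and 3, 0 in WT and 0 in *Gde2*KO libraries alone, and 2 to 5 with each library left out, where the highest was without 4-month *Gde2*KO library 2. Retained-intron transcripts only gave 6, then 5 without the 2 libraries of low depth, 1 without 4-month *Gde2*KO libraries 1 and 3, 1 in WT and 0 in *Gde2*KO libraries alone, 7 by normalized counts and 3 to 8 with each library left out. Decay transcripts only gave 0, also without the libraries of low depth and by normalized counts, and the share of retained-intron among nonproductive transcripts gave 0.

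Among the 16 member results with an unadjusted p under 0.05, signs changed for *Srsf5* between the ages from protein-coding transcripts only (-0.10) and, from decay transcripts only, for *Srsf6* in the interaction (-0.65) and between the ages for *Srsf1* (-0.20, and -0.17 without the libraries of low depth), *Srsf3* (-0.084, -0.024 without them and -0.0060 by normalized counts) and *Srsf11* (-0.019), as another class of transcripts is counted. Of the 395 alternative values of these 16 results, 319 kept direction and side of the threshold, 53 lost and 15 gained the call and 8 changed sign. Over all members tested, whatever their p, 10 of 230 alternative values between the ages had the opposite sign at gene level (*Srsf1*, *Srsf2*, *Srsf5*, *Srsf7* and *Srsf10*) and 16 of 346 for the nonproductive share (*Srsf1*, *Srsf2*, *Srsf3*, *Srsf6*, *Srsf9* and *Srsf11*). For the interaction these were 17 of 190 and 20 of 160, and for the genotypes 25 of 170 at 4 months and 27 of 160 at 19 months at gene level and 8 of 115 and 26 of 105 for the nonproductive share. Decay transcripts only gave *Srsf6* -0.51 and *Srsf2* -3.22 between the ages, against 0.24 and 0.16 with both classes, and *Srsf1* -0.98 and *Srsf3* -0.13 in the interaction, against 0.29 and 0.25. The cause of the other changes was not tested.

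At 4 months WT and *Gde2*KO libraries share numbers. Deviations of same-numbered libraries correlated at 0.060, 0.0071 and -0.048, and those of unlike-numbered ones at -0.14 to 0.11. With 3 libraries a group these values cannot decide whether the numbers pair the libraries, and the labels do not say. With a replicate block 21 genes were called against 24, with 0 members, transcript usage called 97 genes against 122, and the nonproductive share 0 against 1. No paired analysis was possible at 19 months because the columns carry no replicate numbers. Without replicates beyond 3 a group and with 1 read worth 8.29 normalized counts in *Gde2*KO library A, small differences of low transcripts at 19 months were not detectable at this depth. Alternatives by single genotype, without 4-month *Gde2*KO libraries 1 and 3, by coding transcripts and those combined with a class of transcripts were chosen after seeing the data.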
